A study of Homo sapiens with 4 samples.

Results

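The 6 genes examined belong to the cytoskeleton and to translation elongation. They are the actin genes ACTB and ACTG1, the tubulin genes TUBA1B and TUBB, and the elongation factor genes EEF1A1 and EEF2, and the cells were HCT116, an established line from a human colorectal carcinoma. The genes were chosen by name, and all peaks overlapping their hg19 spans or the 5 kb on either side were taken. This gave 11 of 17887 TAF3 peaks, 10 of 17975 H3K4me3 peaks and 15 of 61456 RNAPII peaks, or 36 of 97318 peaks in all. The libraries, 1 each, came from cells at passages 15 to 18, with no treatment named besides formaldehyde fixation: TAF3 (antiserum against residues 290 to 389 of the human protein), H3K4me3 (ab8580), RNAPII (N-20) and input DNA without antibody. After duplicate removal, 17411155 TAF3, 12560129 H3K4me3, 16841238 RNAPII and 19185386 input tags remained. With 1 library per antibody there is no replicate error, and no test was made. Intervals below are exact Poisson 95% intervals on tag counts and cover counting error only.

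TAF3 is a subunit of TFIID, the general transcription factor that marks out the promoter for the preinitiation complex, and its PHD finger binds histone H3 trimethylated at lysine 4 (H3K4me3). RNAPII starts within the region so marked, crosses the gene, and continues past the polyadenylation site until it is released. Actins form microfilaments, α- and β-tubulin form microtubules, and eEF1A and eEF2 bring aminoacyl-tRNA to the ribosome and move the ribosome along the mRNA. These genes are transcribed at high rates in dividing cells, and the actin, tubulin and eEF1A families have many processed pseudogenes, whose sequence is close to that of the exons.

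Promoter sequences of these genes differed in which exact motif sequences they held. RefSeq promoter windows (GRCh38.p14, 250 bases before to 50 after the start) matched 5 of the 6 genes, all except ACTB, with 2 windows for TUBB. GRCh38 coordinates here are not those of the hg19 peaks. The windows below, 5′ to 3′ on the gene's minus strand, are for ACTG1 (chr17:81512750-81513049), TUBA1B (chr12:49131346-49131645), EEF1A1 (chr6:73520983-73521282) and EEF2 (chr19:3985414-3985713). Capitals mark matches, on either strand, to the TATA box sequence TATAAA or its variant TATATAA, to the CCAAT box, to the cyclic AMP response element TGACGTCA and to the CArG box. They also mark a run of at least 5 pyrimidines that opens with C at the start itself.
ACTG1: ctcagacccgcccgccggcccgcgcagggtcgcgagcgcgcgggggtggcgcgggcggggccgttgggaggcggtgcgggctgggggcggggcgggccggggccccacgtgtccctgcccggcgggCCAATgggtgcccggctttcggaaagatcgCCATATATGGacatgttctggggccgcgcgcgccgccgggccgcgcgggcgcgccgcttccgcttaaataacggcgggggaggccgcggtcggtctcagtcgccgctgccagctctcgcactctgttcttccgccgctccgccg
TUBA1B: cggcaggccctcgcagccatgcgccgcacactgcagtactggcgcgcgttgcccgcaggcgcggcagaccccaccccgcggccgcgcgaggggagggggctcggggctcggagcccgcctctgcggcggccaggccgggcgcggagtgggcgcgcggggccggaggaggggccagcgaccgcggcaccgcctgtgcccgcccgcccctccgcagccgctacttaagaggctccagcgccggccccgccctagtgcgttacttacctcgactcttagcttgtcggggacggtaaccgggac
EEF1A1: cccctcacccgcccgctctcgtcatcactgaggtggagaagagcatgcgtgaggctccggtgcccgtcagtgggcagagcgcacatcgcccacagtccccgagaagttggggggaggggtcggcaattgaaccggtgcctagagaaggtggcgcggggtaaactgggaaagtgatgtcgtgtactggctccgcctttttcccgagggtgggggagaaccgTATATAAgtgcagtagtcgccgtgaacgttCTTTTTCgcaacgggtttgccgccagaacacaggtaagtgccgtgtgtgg
EEF2: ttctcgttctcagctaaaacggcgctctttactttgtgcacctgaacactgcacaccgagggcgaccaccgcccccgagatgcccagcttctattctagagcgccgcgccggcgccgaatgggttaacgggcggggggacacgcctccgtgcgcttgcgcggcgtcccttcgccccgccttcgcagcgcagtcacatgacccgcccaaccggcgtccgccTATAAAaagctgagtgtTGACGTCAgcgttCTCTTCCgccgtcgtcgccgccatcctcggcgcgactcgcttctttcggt

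EEF2 held TATAAA at 30 to 25 bases before the start, a sequence found at any position in 11.5% of all 35116 windows. Shares given for the other motifs also ignore position, except for pyrimidine runs at the start. EEF1A1 held TATATAA at 30 to 24 bases before the start, found in 2.57% of windows. The ACTG1, TUBA1B and TUBB windows held neither of these exact sequences, and other TATA variants were not searched. ACTG1 held a CArG box, the sequence bound by serum response factor, at 94 to 85 bases before the start (1.29% of windows), and CCAAT at 124 to 120 bases before it. CCAAT was also in the first TUBB window and in 34.6% of all windows. EEF2 held TGACGTCA, the cyclic AMP response element, at 13 to 6 bases before the start (1.85% of windows). GGGCGG, the GC box, was in at least 1 window of each of the 5 genes and in 45% of all windows, and no match overlapped that of a different motif. The transcripts of EEF1A1 and EEF2 both open with C and a run of 7 pyrimidines, a stretch of the kind called a terminal oligopyrimidine tract in mRNAs of the translation machinery. Such a run of at least 7 stood at the start in 2.1% of all windows. At the first TUBB start the run was of 5, and at least 5 were found in 4.07% of windows. The G and C content was highest in ACTG1 (77.3%) and TUBA1B (77.0%) and lowest in EEF1A1 (60.7%). These matches are descriptions of sequence, not measured binding sites.

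All 6 genes carried TAF3, H3K4me3 and RNAPII at the start. Each had a peak of all 3 antibodies within 1 kb of its 5′ boundary, and every such peak was in the authors' filtered lists (fold enrichment above 5, false discovery rate below 5%). Across the series, peaks of both other antibodies were found at 86.0% of TAF3 peaks in the full lists and at 97.6% in the filtered lists, so this count is near the background. Spans were known to 1 kb, so each boundary is uncertain by about 0.5 kb, and positions near the start are given from the TAF3 summit. Peaks of the actin, tubulin and EEF1A1 exons may share reads with pseudogenes. How reads with several matches were placed is not given in the sources used here.

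**Figure D1:**
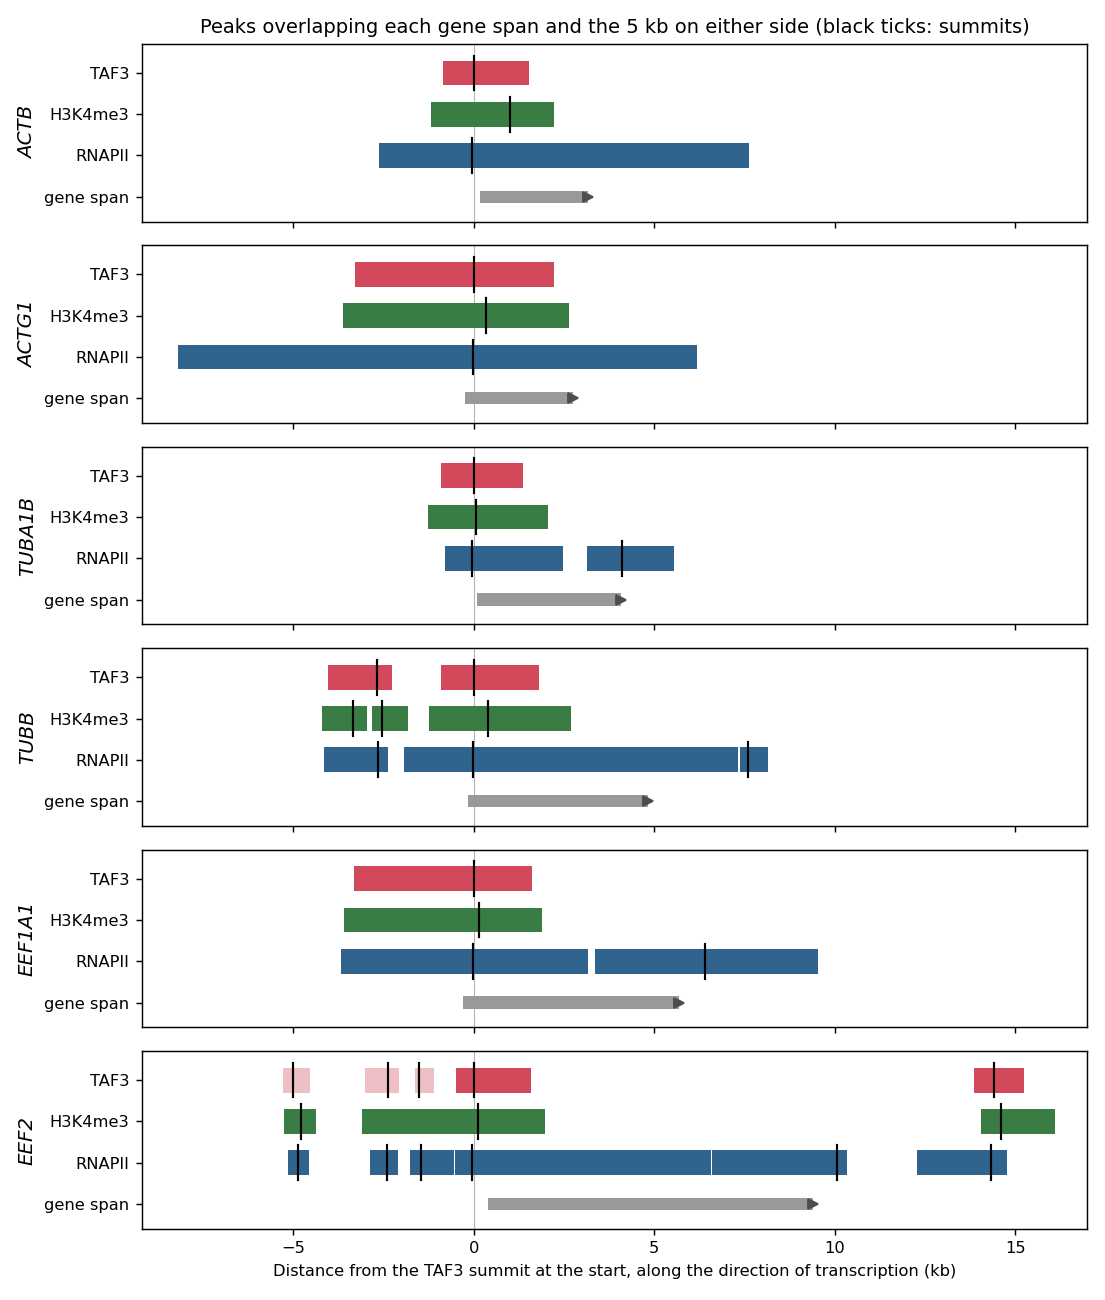
Peaks of TAF3, H3K4me3 and RNAPII at the 6 genes, in kb from the TAF3 summit along the direction of transcription. Bars are peaks, pale where outside the filtered list, black ticks are summits and grey bars the gene spans. RNAPII runs beyond the 3′ end of every gene, while the TAF3 and H3K4me3 start peaks end, downstream, within the gene spans as given. At ACTG1 these ends lie too near the 3′ boundary, uncertain by about 0.5 kb, to be placed within the gene. A separate TAF3 and H3K4me3 pair lies beyond EEF2, and separate peaks also lie upstream of TUBB and EEF2.

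The actin genes had the widest RNAPII peaks of the 6. At ACTB, which encodes β-actin, TAF3 was enriched 52.7-fold (393 tags, chr7:5568647-5571018), H3K4me3 128-fold (1218 tags, chr7:5567939-5571352) and RNAPII 141-fold (3303 tags, chr7:5562538-5572786). The TAF3 and RNAPII folds at ACTB were the lowest among the 6 genes. At ACTG1, which encodes γ-actin, TAF3 was enriched 82.4-fold (1092 tags, chr17:79477526-79483050), H3K4me3 124-fold (2917 tags, chr17:79477115-79483386) and RNAPII 154-fold (6633 tags, chr17:79473565-79487963). The ACTG1 peaks were the widest of the 6 for every antibody: the TAF3 peak spanned 5525 bp, the H3K4me3 peak 6272 bp and the RNAPII peak 14399 bp. Upstream, that RNAPII peak also ran over a TAF3 peak (34.5-fold) and an H3K4me3 peak (121-fold) that lie 453 and 326 bp outside the window, on the side of FSCN2, the neighbouring gene on the opposite strand.

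The tubulin genes combined high H3K4me3 and RNAPII enrichment. At TUBA1B, an α-tubulin gene, TAF3 was enriched 98.8-fold (525 tags, chr12:49523708-49526005), H3K4me3 257-fold (1223 tags, chr12:49523014-49526361) and RNAPII 236-fold (1337 tags, chr12:49522614-49525883). Both the H3K4me3 and the RNAPII fold were the highest of the 6, in the narrowest peaks of the 6 (3348 and 3270 bp). At TUBB, a β-tubulin gene, TAF3 was enriched 107-fold (540 tags, chr6:30687255-30689972), H3K4me3 195-fold (1501 tags, chr6:30686926-30690848) and RNAPII 203-fold (2570 tags, chr6:30686226-30695498). A second set of peaks lay upstream of TUBB, towards MDC1, its neighbour on the opposite strand, with TAF3 at 46.0-fold (232 tags), H3K4me3 at 96.0- and 67.1-fold in 2 peaks, and RNAPII at 101-fold (486 tags). Their TAF3 and RNAPII summits lay 2699 and 2668 bp upstream of the TAF3 summit of TUBB.

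EEF1A1 had the strongest TAF3 peak of the 6. At EEF1A1, TAF3 was enriched 149.7-fold (1234 tags, chr6:74229068-74234018), H3K4me3 156-fold (2030 tags, chr6:74228798-74234282) and RNAPII 223-fold (2774 tags, chr6:74227541-74234367). That TAF3 peak stood at percentile 99.8 of the filtered TAF3 list by fold. At EEF2, TAF3 was enriched 89.0-fold (654 tags, chr19:3983799-3985874), H3K4me3 169-fold (1679 tags, chr19:3983433-3988485) and RNAPII 165-fold (1593 tags, chr19:3978820-3985916). Its TAF3 peak was the narrowest of the 6 (2076 bp) and the densest, with 315 tags per kb (291 to 340). Upstream of EEF2 the H3K4me3 peak went on to 3095 bp from the TAF3 summit, over 2 TAF3 peaks outside the filtered list (7.20- and 9.84-fold) and RNAPII peaks of 40.0- and 28.3-fold. Farther upstream, with summits 4793 to 5017 bp from that of TAF3 at the start, lay H3K4me3 at 117-fold and RNAPII at 36.1-fold. A TAF3 peak of 15.5-fold there was outside the filtered list.

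By fold enrichment within each antibody's own filtered list, the starts of these genes ranked high for TAF3 and RNAPII and less so for H3K4me3. These lists differ: RNAPII has 25013 peaks, including peaks away from starts such as those past the 3′ end. TAF3 has 11765 and H3K4me3 14298. By fold enrichment, 5 of the 6 TAF3 start peaks were in the upper 10% of the filtered list (9.94% of all TAF3 peaks), all but ACTB at percentile 74.7. For RNAPII it was also 5 of 6 (10.0% of all RNAPII peaks), again all but ACTB, at percentile 87.7. For H3K4me3 it was 1 of 6, TUBA1B at percentile 98.3 (9.99% of all H3K4me3 peaks), and ACTB and ACTG1 stood at 50.9 and 48.9. The H3K4me3 peaks of these genes were broad all the same, between 3348 and 6272 bp, against a median of 2240 bp over the filtered list. By tags, the H3K4me3 peaks ranged from percentile 85.3 at ACTB to 99.9 at ACTG1. The median percentiles by tags were close, at 97.2 for TAF3, 95.1 for H3K4me3 and 99.3 for RNAPII.

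**Figure D2:**
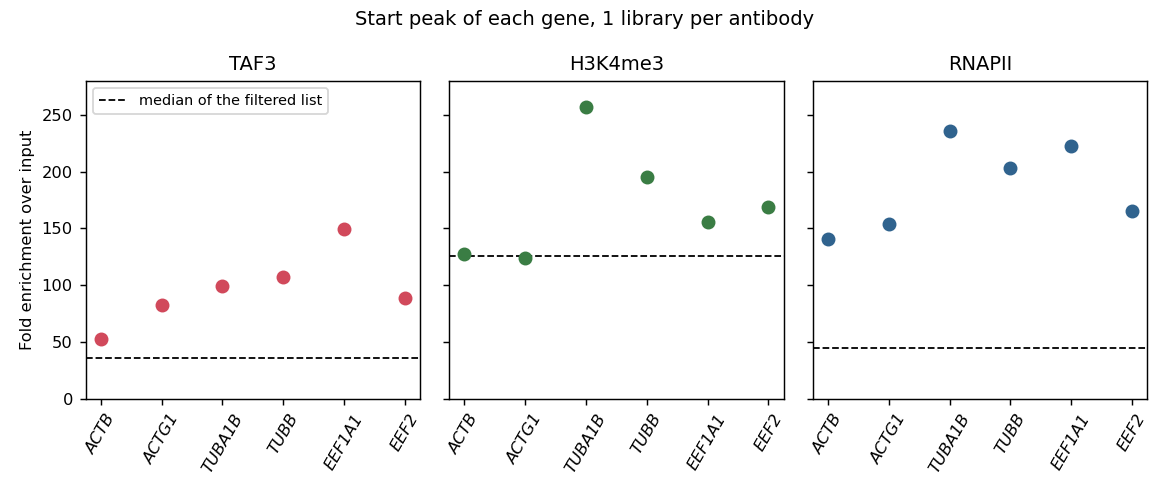
Fold enrichment over input of the start peak of each gene (points, 1 library per antibody) with the median of each filtered list (dashed lines). TAF3 and RNAPII lie above their medians of 36.1 and 44.8 at all 6 genes, while H3K4me3 at ACTB and ACTG1 lies close to its median of 126.

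The order of the genes differed between antibodies, and many neighbours in it were not separated beyond counting error. By TAF3 tags per kb of start peak the order was EEF2 (315), EEF1A1 (249), TUBA1B (228), TUBB (199), ACTG1 (198) and ACTB (166). The intervals of the ratio held 1 between EEF1A1 and TUBA1B and between TUBB and ACTG1. For H3K4me3 ACTG1 was densest (465 tags per kb, 448 to 482), and the other 5, from TUBB (383) to EEF2 (332), showed no neighbours separated beyond counting error. For RNAPII the order was ACTG1 (461), TUBA1B (409), EEF1A1 (406), ACTB (322), TUBB (277) and EEF2 (224), and the interval of the ratio held 1 between TUBA1B and EEF1A1 alone. EEF2 was thus highest for TAF3 density and lowest for RNAPII density. Its H3K4me3 density, a mean over a peak of 5053 bp, was also lowest but not separated from that of ACTB. By fold enrichment EEF2 stood above ACTB and ACTG1 for both RNAPII and H3K4me3. The RNAPII start peaks of all 6 genes run into the gene, by 2465 bp or more from the TAF3 summit, so their density is a mean over more than the start.

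Along the direction of transcription, the summits fell in the same order at all 6 genes, first RNAPII, then TAF3, then H3K4me3. The RNAPII summit lay upstream of the TAF3 summit by 67 bp at ACTB, 39 bp at ACTG1, 46 bp at TUBA1B, 16 bp at TUBB, 27 bp at EEF1A1 and 44 bp at EEF2. The H3K4me3 summit lay downstream of it by 998 bp at ACTB, 335 bp at ACTG1, 59 bp at TUBA1B, 377 bp at TUBB, 135 bp at EEF1A1 and 101 bp at EEF2. TAF3 was therefore the middle summit at 6 of 6 genes, and it was so at 61.3% of the 11340 TAF3 peaks of the series that have both partners and 3 different summits. Summits of RNAPII and TAF3 within 100 bp of each other, found at 6 of 6 genes, were also found at 67.8% of 11484 TAF3 peaks with both partners. The median over those 11484 peaks was 43 bp from TAF3 to RNAPII and 231 bp from TAF3 to H3K4me3, with quartiles of 118 and 416 bp for H3K4me3. The H3K4me3 distance at ACTB was above the upper quartile, and those at TUBA1B and EEF2 were below the lower one. Strand is not known here for the peaks of the series at large, so the upstream side of RNAPII could not be compared with them. The RNAPII offsets, and the H3K4me3 offsets at TUBA1B, EEF1A1 and EEF2, are below the roughly 200 bp of the selected library fragments.

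**Figure D3:**
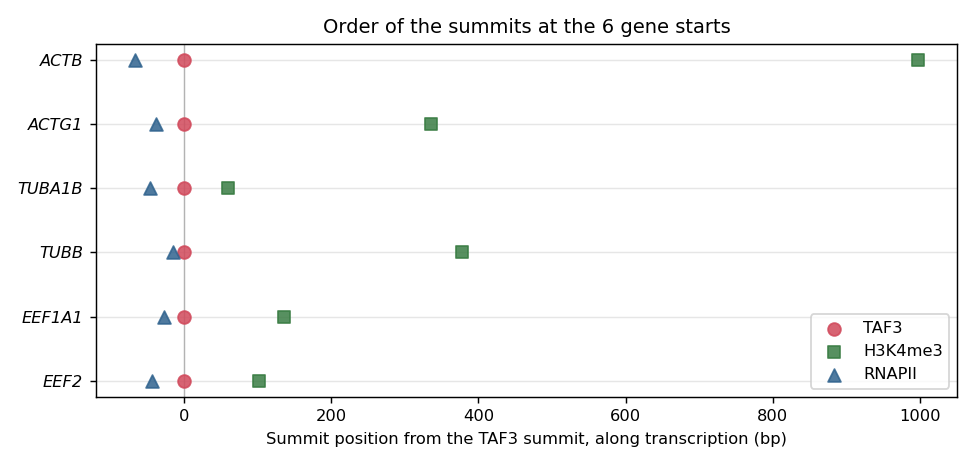
Position of the TAF3, H3K4me3 and RNAPII summits of the start peaks, in bp from the TAF3 summit along transcription. RNAPII lies 16 to 67 bp upstream and H3K4me3 59 to 998 bp downstream at all 6 genes.

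By the spans as given, the TAF3 and H3K4me3 start peaks ended within the genes, while RNAPII went on. At ACTG1 the H3K4me3 peak ended less than 0.5 kb from the 3′ boundary and the TAF3 peak about 0.5 kb from it. That boundary is uncertain by about 0.5 kb, so whether these peaks ended within ACTG1 is not settled. Downstream of the TAF3 summit the TAF3 start peaks ended after 1371 to 2229 bp and the H3K4me3 start peaks after 1893 to 2680 bp. RNAPII peaks covered 100% of the spans of ACTB, ACTG1 and TUBB, 99.7% of EEF2, 96.7% of EEF1A1 and 83.1% of TUBA1B. H3K4me3 covered between 17.4% of EEF2, the longest gene at 9 kb, and 96.2% of ACTG1, which spans 3 kb. In the 5 kb past the 3′ boundary as given, TAF3 and H3K4me3 peaks covered 0% at 5 of the 6 genes. At EEF2 they covered 10.8% and 6.66%, at peaks on the side of DAPK3, the next gene on the same strand.

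RNAPII was present past the 3′ end of all 6 genes. Other gene ends were not located here, so no share over the series can be set beside this count or beside that of summits past the end. Its peaks reached 4462 bp past the 3′ boundary at ACTB, 3435 bp at ACTG1, 1472 bp at TUBA1B, 3311 bp at TUBB, 3836 bp at EEF1A1 and 5381 bp at EEF2, with a median of 3635.5 bp. TUBA1B had the shortest reach. The EEF2 value counts an RNAPII peak (97.8-fold, 515 tags, chr19:3970619-3973114) that overlaps the TAF3 peak on the DAPK3 side (19.1-fold, 95 tags). Without that peak the reach at EEF2 was 940 bp, and it was then the shortest. Because the boundaries are uncertain by about 0.5 kb, these distances are too.

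At ACTB and ACTG1 a single RNAPII peak held the start, the gene and the 3′ flank, with its only deposited summit at the start. At these genes the lists give no separate value past the end, since MACS wrote 1 summit and 1 tag count per peak. At the other 4 genes a separate RNAPII peak had its summit past the 3′ boundary, 32 bp past it at TUBA1B, 2762 bp at TUBB, 699 bp at EEF1A1 and 664 bp at EEF2. With the boundary moved outward by 0.5 kb, the TUBA1B summit was no longer past it and the count was 3. The separate peaks at TUBA1B, EEF1A1 and EEF2 cross the boundary, so their values include the last part of the gene: 1472 of 2408 bp, 3836 of 6178 bp and 940 of 3737 bp lie past it.

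EEF1A1 had nearly as much RNAPII around its 3′ end as at its start. The peak crossing the EEF1A1 3′ end (chr6:74221164-74227341) held 2168 tags at 202-fold enrichment, against 2774 tags at 223-fold in the start peak. Their densities were 351 tags per kb (336 to 366) over the whole peak crossing the end and 406 (391 to 422) in the start peak. The ratio was 0.864 (0.816 to 0.914). The start peak here runs 3150 bp downstream of the TAF3 summit, so its density includes gene body. A gap of 199 bp separated these peaks, and neither TAF3 nor H3K4me3 had a peak at the one crossing the 3′ end.

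At TUBA1B and TUBB the separate RNAPII peak past the end was weaker than the start peak. The TUBA1B peak (chr12:49519528-49521935) held 349 tags at 50.3-fold, or 145 tags per kb (130 to 161), against 1337 tags at 236-fold and 409 tags per kb (387 to 431) at the start. The ratio of densities was 0.354 (0.314 to 0.399). The separate TUBB peak (chr6:30695530-30696311) held 76 tags at 19.5-fold, or 97.2 tags per kb (76.6 to 122), against 277 (267 to 288) in the start peak, a ratio of 0.351 (0.275 to 0.441). The start peak of TUBB itself ran 2498 bp past the 3′ boundary and ended 31 bp before this small peak, on the side of FLOT1, the next gene, which lies on the opposite strand.

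At EEF2 density and fold enrichment gave different pictures. The peak over the EEF2 3′ end (chr19:3975060-3978796) held 738 tags, or 197 per kb (183 to 212), against 1593 tags and 224 per kb (214 to 236) in the start peak, a ratio of 0.880 (0.805 to 0.961). By fold enrichment, which is read at the summit, the same peaks had 43.4-fold past the end and 165-fold at the start. The peak on the DAPK3 side had 206 tags per kb, and its ratio to the EEF2 start peak was 0.919 (0.831 to 1.02), not separated beyond counting error.

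**Figure D4:**
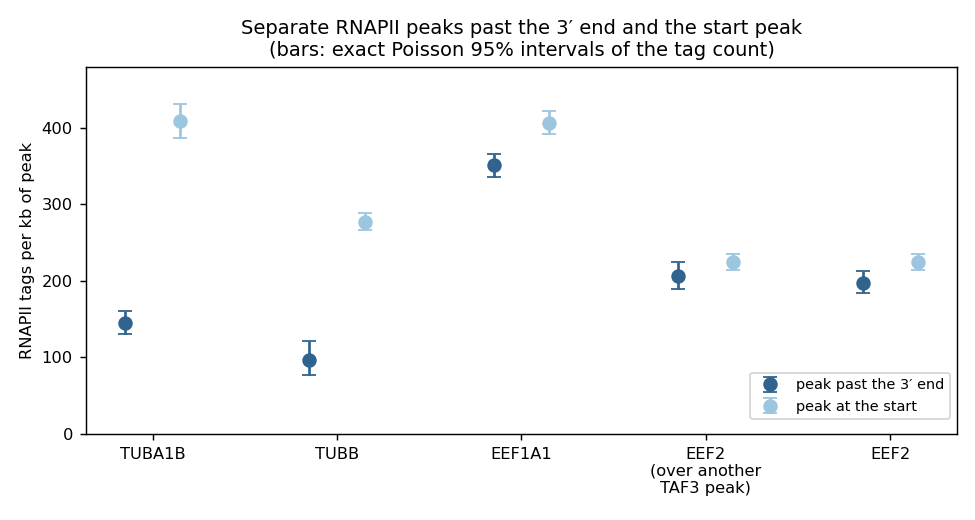
RNAPII tags per kb in separate peaks past the 3′ end (dark) and in the start peak (light) of TUBA1B, TUBB, EEF1A1 and EEF2, with exact Poisson 95% intervals. The peak past the end lies below the start peak throughout, by least at EEF1A1 and EEF2, where the peak on the DAPK3 side has an interval overlapping that of the start peak. At TUBB the start peak also covers the first 2498 bp past the 3′ end. At TUBA1B, EEF1A1 and EEF2 the peak over the 3′ boundary also includes the last part of the gene.

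Of the 4 genes with a separate RNAPII peak past the 3′ end, 0 had one of higher fold there than at the start. ACTB and ACTG1 could not be compared. At TUBB the start peak also covers the first 2498 bp past the end, so only RNAPII farther out was compared. Over the series, RNAPII peaks without a filtered TAF3 peak were sought within 10 kb on either side of the TAF3 summit. They may still overlap TAF3 peaks outside the filtered list. Such an RNAPII peak exceeded, by fold, the one at the TAF3 peak at 0.888% of the 11484 TAF3 peaks with both partners. Among the 6401 that have such a peak the share was 1.59%. With so rare an outcome, a count of 0 says nothing particular about these genes. An RNAPII peak of any fold without a filtered TAF3 peak was present at 5 of the 6 genes, all but ACTB, and at 55.7% of the 11484. The strongest had 201.7-fold at EEF1A1, 50.3-fold at TUBA1B, 43.4-fold at EEF2, 19.5-fold at TUBB and 7.57-fold at ACTG1. As a ratio to the start peak, EEF1A1 stood at percentile 97.9 of the 6401 TAF3 peaks with such a neighbour, EEF2 at 80.1, TUBA1B at 72.5, TUBB at 31.7 and ACTG1 at 4.05. The median ratio over those 6401 was 0.133.

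The RNAPII peaks over these starts were long for the series. Measured from the TAF3 summit to the farther edge of the overlapping RNAPII peak, the reach was 7625 bp at ACTB, 8208 bp at ACTG1, 2465 bp at TUBA1B, 7330 bp at TUBB, 3676 bp at EEF1A1 and 6570 bp at EEF2. The reach was at least 5 kb at 4 of the 6 genes, against 5.47% of the 11484 TAF3 peaks with both partners, whose median was 1125 bp. None of the 6 reached 10 kb, as did 1.36% of the 11484. TUBA1B and EEF1A1 fell short, at percentiles 86.9 and 92.1. With RNAPII peaks joined over gaps of at most 1 kb, all 6 passed 5 kb, against 16.0% of the 11484, and EEF2 reached 10330 bp. At ACTB, TUBA1B, TUBB and EEF2 the longer side was the downstream one. At ACTG1 and EEF1A1 it was the upstream one, where the ACTG1 peak runs over the TAF3 peak on the FSCN2 side. Downstream, the ACTG1 reach was 6190 bp and the EEF1A1 reach 3150 bp.

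**Figure D5:**
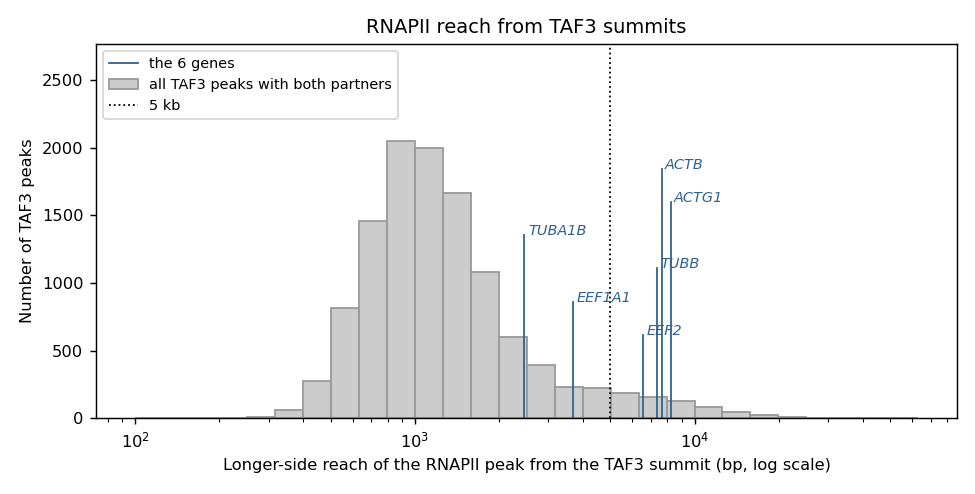
Distance from the TAF3 summit to the farther edge of the overlapping RNAPII peak (log scale), for the 6 genes (lines) and for 11484 TAF3 peaks with both partners (grey bars, number of peaks). The 4 genes ACTB, ACTG1, TUBB and EEF2 lie beyond 5 kb (dotted line), with TUBA1B and EEF1A1 short of it. The heights of the lines carry no value.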

How the data were processed

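The labels' protocols give 15 PCR cycles, gel selection near 200 bp and 36 bp reads. CASAVA 1.8.2, MACS 1.4.2 and the build hg19 are named in the submitters' processing notes. Each antibody was compared with the shared input by MACS at a p cutoff of 1e-05, keeping at most 1 tag per position, per the file headers, which bounds dense counts. Duplicate removal took 40.2% of H3K4me3 tags, against 14.2% for TAF3, 16.1% for RNAPII and 2.57% for input. The deposited tag count of a peak is raw. Fold enrichment, as deposited, is a ratio to the local background, read at the summit. The deposited score is the log10 p-value with its sign turned, times 10, and the false discovery rate was deposited as a percent. Filtered lists were tested on the files and hold the peaks with fold above 5 and false discovery rate below 5%.

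The members, lists and measures were chosen with earlier results of these data known. Spans came rounded to 1 kb, and strand from the RefSeq promoter table (for ACTB from general knowledge). All 6 genes are named, and neighbours by gene order in the RefSeq gene table of GRCh38.p14. Other genes of these pathways, and genes of like pattern, are not analysed here. Start peaks are those of highest fold within 1 kb of the start, and overlaps need 1 bp. Percentiles are shares of the filtered list with a lower value, with tied values split evenly between lower and higher. Density is tags per kb of peak, and ratios carry exact conditional 95% intervals. Alternatives covered lists, windows, boundaries, measures and joined peaks. The work used Python 3.11.15 with scipy 1.17.1, numpy 2.4.6, matplotlib 3.10.9 and pandas 2.3.3. Simulated data with known answers were used to check the code, and 8 of 8 checks passed.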

Additional observations from a re-analysis of the deposited data

How the results depend on the processing

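No paired analysis was possible because each antibody has 1 library, and for the same reason no library could be left out. With filtered lists or other windows, all 6 genes kept a start peak of all 3 antibodies. With filtered lists, other windows, moved boundaries or without peaks over another TAF3 peak, all 6 kept RNAPII past the 3′ end. The median RNAPII reach past the 3′ end (3635.5 bp) was 4421.5 bp with the boundaries moved outward by 0.5 kb, where the moved windows took in a farther peak at TUBB and EEF1A1 (reach 5654 and 5040 bp), 4135.5 bp with them moved inward, and 3373 bp without peaks over another TAF3 peak, a choice made after seeing the data. The count of genes with RNAPII at least 5 kb from the TAF3 summit was 0 at 10 kb in place of 4. The median percentile of the start peaks was 95.9 by fold for TAF3, and 97.3 in the full list, 97.2 by tags, 93.5 by tags per kb and 92.8 by score. For H3K4me3 it was 71.1 by fold, and 77.0 in the full list, 95.1 by tags, 71.2 by tags per kb and 61.9 by score. For RNAPII it was 95.3 by fold, and 98.1 in the full list, 99.3 by tags, 96.0 by tags per kb and 82.8 by score. Every start peak but that of TAF3 at ACTB stood at the score ceiling of 3100, where many peaks tie. The median percentiles by score, for all 3 antibodies, thus include part of the tied peaks and are not shares with a lower score. The place of H3K4me3 in its list thus depended on the measure. Where 1 peak covers a whole gene, these lists cannot separate start, body and 3′ flank.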
